A study of Mus musculus with 8 samples.

Results

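At day 3 of the reprogramming of mouse embryonic fibroblasts (MEFs), 7770 regions of the genome carried a CUT&Tag peak of Oct4 and a peak of Sox2 but no peak of Nanog or Nr5a2. They were found by merging the 661009 peaks of all 8 libraries into 306466 regions, with an overlap of 1 bp taken as enough to join peaks. Members were chosen by the peak calls alone. A merged region was a member when at least 1 of the Oct4 libraries (native Oct4 or Oct4BiD) and at least 1 of the Sox2 libraries (native Sox2 or Sox2BiD) had a peak in it and none of the 4 Nanog and Nr5a2 libraries did. Members were thus 24.4% of the 31803 regions that held both an Oct4 and a Sox2 peak, 7.28% of the 106763 regions with an Oct4 peak and 6.17% of the 125958 regions with a Sox2 peak. Of the members, 7768 lay on placed chromosomes, and these are used for all values that need sequence or annotation.

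The study asked whether fusing a domain that recruits a chromatin remodeler to a pluripotency factor makes that factor a better driver of reprogramming. The domain, called BiD, is a stretch of 70 residues of SS18 that interacts with BRG1, the ATPase of the BAF complex, and it was placed at the N-terminus of each factor. Per the study's methods, the MEFs came from OG2 embryos, whose cells carry a GFP reporter of Oct4, and the factors were delivered with pMXs retroviral vectors. The 8 libraries were Oct4, Oct4BiD, Sox2, Sox2BiD, Nanog, NanogBiD, Nr5a2 and Nr5a2BiD, all made at day 3 with an antibody to the Flag tag on the delivered factor, so that endogenous protein without the tag is not a target of the assay. The labels do not say which other factors were in the same cells. There was 1 library per group and no control library, and the study's reporting form states that the CUT&Tag experiment was done once. No difference between groups was therefore tested. The intervals below are exact (Clopper-Pearson) 95% binomial intervals for shares, which cover counting error only and treat regions, not cultures, as the units.

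Oct4 and Sox2 are the textbook pair of pluripotency factors. Oct4 is a POU factor, whose bipartite DNA-binding domain reads the octamer ATGCAAAT, and Sox2 is an HMG-box factor, which reads CATTGT and its variants through the minor groove. In embryonic stem cells the proteins are known to sit side by side on a composite element. It has the SOX sequence directly before the octamer and 1 base between them, as at enhancers of Utf1 and Nanog. Oct4 can also bind as a pair of molecules on a palindromic site known as MORE, made of ATGCAT written directly after itself. The members are therefore the regions where such shared elements could be looked for without the other 2 factors, and sequence was not used to choose them.

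The first 5 members that held the composite, taken in order of how high they ranked in all 4 Oct4 and Sox2 libraries, are given as the bases of mm10 up to 100 bp to either side of the Oct4 summit, with the best composite match in capitals. They are shown to let the reader see such matches. Each was chosen for holding one, so they do not show how close the best-ranked members as a whole came to the element. Up to 2 mismatches to its 14 fixed positions were allowed, and the match was required within 50 bp of the summit.
Composite-bearing member 1, chr15:52699964-52700164, plus strand: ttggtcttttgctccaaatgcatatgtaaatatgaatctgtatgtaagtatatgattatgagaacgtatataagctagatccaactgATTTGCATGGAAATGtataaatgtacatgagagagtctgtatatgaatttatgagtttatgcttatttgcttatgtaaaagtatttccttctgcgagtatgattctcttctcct
Composite-bearing member 2, chr2:16600938-16601138, plus strand: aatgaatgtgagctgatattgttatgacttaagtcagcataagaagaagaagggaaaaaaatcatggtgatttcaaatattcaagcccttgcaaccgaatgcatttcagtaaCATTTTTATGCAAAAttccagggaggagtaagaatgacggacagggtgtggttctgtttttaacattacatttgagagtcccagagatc
Composite-bearing member 3, chr11:77126332-77126532, plus strand: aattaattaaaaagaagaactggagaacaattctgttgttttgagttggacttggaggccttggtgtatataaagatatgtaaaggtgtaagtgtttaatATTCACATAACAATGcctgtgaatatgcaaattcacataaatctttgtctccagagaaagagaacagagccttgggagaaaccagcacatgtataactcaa
Composite-bearing member 4, chr15:57017599-57017799, plus strand: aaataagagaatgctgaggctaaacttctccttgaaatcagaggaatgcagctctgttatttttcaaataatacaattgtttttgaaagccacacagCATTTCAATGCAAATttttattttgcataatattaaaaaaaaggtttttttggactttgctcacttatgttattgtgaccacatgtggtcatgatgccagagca
Composite-bearing member 5, chr8:3214170-3214370, plus strand: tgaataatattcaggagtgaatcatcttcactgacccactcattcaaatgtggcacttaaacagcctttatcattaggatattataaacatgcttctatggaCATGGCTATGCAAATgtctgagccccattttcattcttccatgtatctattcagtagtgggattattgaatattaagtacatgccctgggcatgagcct
Positions in the element are counted from 1 at the 5′ end of the SOX part, with the free base at position 7. In the intergenic member 1, on chromosome 15 and 12.3 kb from the nearest protein-coding start site (Med30), the match was on the minus strand and differed by G5T and T6C. Member 2, in an intron and nearest to Plxdc2, differed by G5T and T15A, and member 3, in an intron and nearest to Efcab5, by C11T and A12G on the minus strand. Member 4, intergenic on chromosome 15, differed by G5T and T6C, and member 5, in an intron and nearest to Insr, by T4G and T6C. The octamer part of the match was thus intact in members 1, 4 and 5, where both differences fell in the SOX part. Member 3 held an intact octamer outside its match, also within 50 bp of the Oct4 summit.

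The peaks over these 5 sequences can be set beside the distance between the Oct4 and Sox2 summits of the member. Member 1 had summit heights of 47 tags in native Oct4, 75 in Oct4BiD, 49 in native Sox2 and, for Sox2BiD, 57, and its best Oct4 and Sox2 summits lay 929 bp apart. Member 5 had 34, 46, 22 and 51 tags in the same order, and its summits lay 2 bp apart. Of the 5, members 4 and 5 had their summits within 126 bp of each other, whereas those of members 1, 2 and 3 were 707 bp or more apart.

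A further 3 members were taken from near the top of the same order, with 1 chromosome left aside for the printed sequences, as the first that held 1 of the other 3 elements and not the composite, again with the match in capitals. The window is centred on the Oct4 summit for the octamer and for MORE, and on the Sox2 summit for the SOX motif CCATTGTT.
Octamer-bearing member, chr12:12679743-12679943, plus strand: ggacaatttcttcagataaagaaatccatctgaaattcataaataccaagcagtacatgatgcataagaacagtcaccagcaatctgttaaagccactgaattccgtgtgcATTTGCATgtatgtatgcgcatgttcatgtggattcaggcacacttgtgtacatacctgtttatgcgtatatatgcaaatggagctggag
SOX-bearing member, chr11:29968981-29969181, plus strand: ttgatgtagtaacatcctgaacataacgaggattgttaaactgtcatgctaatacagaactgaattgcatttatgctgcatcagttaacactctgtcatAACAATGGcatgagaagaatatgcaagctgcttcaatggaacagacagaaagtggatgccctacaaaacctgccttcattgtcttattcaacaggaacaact
MORE-bearing member, chr12:13866748-13866948, plus strand: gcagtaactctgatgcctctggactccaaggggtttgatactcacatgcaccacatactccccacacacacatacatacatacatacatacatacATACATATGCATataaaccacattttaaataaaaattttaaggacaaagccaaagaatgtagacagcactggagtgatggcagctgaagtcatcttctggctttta
The octamer-bearing member lay at an annotated promoter of a gene that does not code for protein, and its nearest protein-coding start site was that of Mycn, at a distance of 260 kb. Its octamer was on the minus strand, and its Oct4 and Sox2 summits were 1070 bp apart. The SOX-bearing member lay in an intron, nearest to Eml6, with the summits 48 bp apart. The MORE-bearing member was intergenic, and its match differed from the palindrome by G3A, counted from the 5′ end.

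Which forms of the factors marked a member varied widely. Oct4BiD with Sox2BiD, and neither native factor, accounted for 2397 members (30.85%), the most of the 9 possible combinations. Both Oct4 forms with Sox2BiD alone gave 1438 members, Oct4BiD with both Sox2 forms gave 1373, and all 4 libraries together gave 1217 (15.7%). The combination of native Oct4 with native Sox2 alone had the fewest, with 99 members. A BiD library of either factor was thus present in all but those 99. Of all members, 6792 had an Oct4BiD peak and 3822 a native Oct4 peak, and 7304 had a Sox2BiD peak and 3510 a native Sox2 peak.

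**Figure D1:**
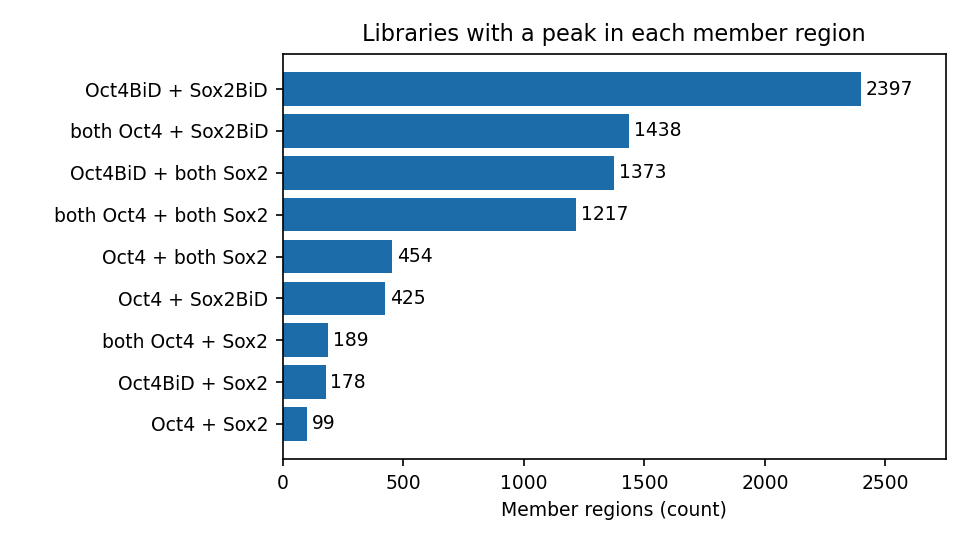
Number of member regions for each of the 9 combinations of libraries with a peak in the region. The bars run from 2397 regions with Oct4BiD and Sox2BiD peaks alone to 99 with native Oct4 and native Sox2 peaks alone.

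The lists themselves differed in length, in the same order. Oct4BiD had 93978 peaks and native Oct4 54794, and Sox2BiD had 120594 and native Sox2 58162. The share of a library's peaks that lay in members was 7.32% for Oct4BiD and 7.04% for native Oct4, and 6.12% for Sox2BiD and 6.08% for native Sox2. The share of the fused form's peaks in members was therefore close to that of the native form for both factors. Among the 5000 highest-scoring peaks of each library, members held 9.10% for native Oct4, 7.86% for Oct4BiD, 6.22% for native Sox2 and 6.02% for Sox2BiD.

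Members were neither the strongest nor the weakest sites of the libraries. The score is the authors' peak score, 10 times -log10 of the p-value given by the peak caller, and every list starts at 50. The median score of native Oct4 peaks was 109.7 in members and 105.5 over all its peaks, and that of Oct4BiD was 142 and 135. For native Sox2 the medians were 141 and 130, and for Sox2BiD they were 151 and 150. Summit heights, in tags that were not scaled to depth, had the same median in members as in all peaks for native Oct4 (17), Oct4BiD (19) and Sox2BiD (21), and for native Sox2 they had medians of 23 and 22. Since the peaks themselves chose the members, these values only describe them.

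The edge of the rule was soft on the side of Nanog and Nr5a2. The median gap from a member to the nearest Nanog or Nr5a2 peak was 3244.5 bp, but 62 members had such a peak within 50 bp of an edge, the nearest at 1 bp, and 1582 had one within 1 kb. On the other side, 3111 regions with Oct4 and Sox2 peaks were removed by a peak of just 1 of the 4 other libraries, of which 1321 were removed by native Nanog, 1018 by NanogBiD, 576 by native Nr5a2 and 196 by Nr5a2BiD. In 330 of these the removing peak scored under 55. Among members, 721 owed 1 of their factors to a peak that scored under 55. A region without a peak is one in which none passed the caller's threshold, which does not show that the factor was absent.

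The Oct4 and Sox2 peaks of a member overlapped broadly, but their summits mostly did not coincide. The highest-scoring Oct4 and Sox2 peaks had median widths of 806 and 826 bp and shared a median of 90.2% of the shorter peak, and in 79.5% of members they shared at least 50% of it. The median distance between their summits was 242 bp, with quartiles of 88 and 518 bp, and 2150 of 7768 members (27.7%, interval 26.7 to 28.7%) had the summits within 100 bp of each other.

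The same regions offer a measure of how precisely a summit is placed, since the native and BiD forms of 1 factor can be compared in them. In the 1216 placed members with peaks of all 4 libraries, the native Oct4 and Oct4BiD summits lay a median of 42 bp apart, and the native Sox2 and Sox2BiD summits 40 bp apart. They were within 100 bp in 75.9% and 75.7% of these regions, respectively. Every pair of an Oct4 with a Sox2 library was farther apart, with medians from 236 bp (native Oct4 and native Sox2) to 324 bp (Oct4BiD and Sox2BiD), and with 26.1 to 30.2% of regions within 100 bp. The Oct4 and Sox2 summits of a member were thus farther from each other than the summits of the 2 forms of either factor.

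**Figure D2:**
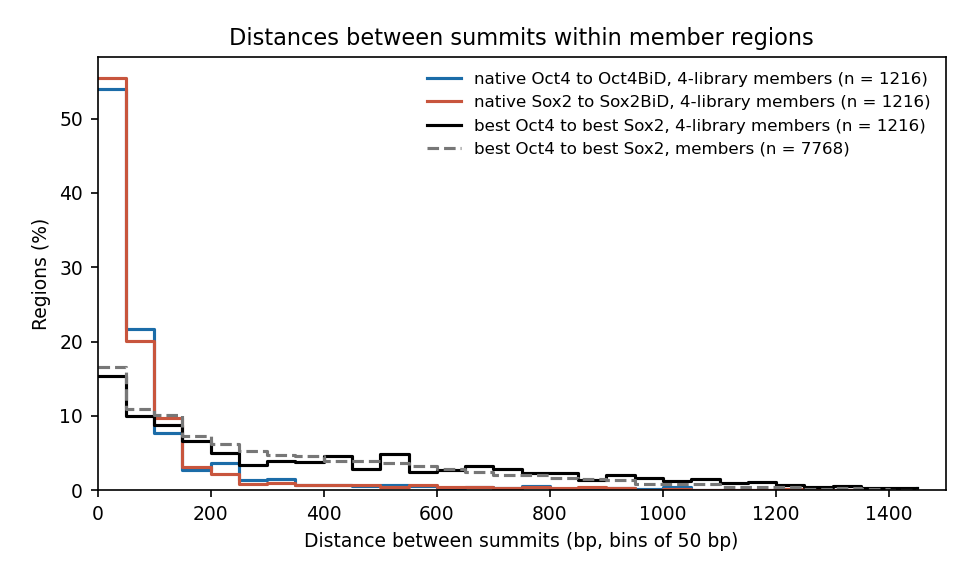
Share of regions by the distance between 2 summits, in bins of 50 bp, for the 2 forms of Oct4 and of Sox2 and for the highest-scoring Oct4 and Sox2 peaks in members with all 4 libraries, and for the latter pair in all members. Median distances are 42 and 40 bp for the 2 forms of a factor and 242 bp for Oct4 to Sox2 over all members.

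Across the combinations, the median distance was shortest where native Oct4 met native Sox2 alone (116 bp, 98 placed regions) and longest where both Oct4 forms met Sox2BiD (315 bp, 1438 regions). Summits lay within 100 bp in 48.0% of the former (interval 37.8 to 58.3%) and in 22.8% of the latter (interval 20.7 to 25.1%). In the 24027 placed regions that held Oct4 and Sox2 peaks together with Nanog or Nr5a2, the median distance was 163 bp, and 39.7% of summit pairs were within 100 bp.

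Each factor's own motif was found at its own summit. The octamer lay within 50 bp of the Oct4 summit in 732 of 7768 members (9.42%, interval 8.78 to 10.1%), against 0.7145% of windows of the same length centred 500 bp to either side. The SOX motif CCATTGTT lay within 50 bp of the Sox2 summit in 223 members (2.87%, interval 2.51 to 3.27%), against 0.3605% of the flanking windows. Over all 306426 placed regions of the series, 2.93% had an octamer and 1.27% a SOX motif within 50 bp of their highest summit. Motifs were matched exactly and on both strands, and the octamer is also part of the composite. The motif of the labelled factor was thus more frequent at its own summit than in the flanks for both factors.

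At the other factor's summit these motifs were much less frequent. The SOX motif was found at 0.566% of the members' Oct4 summits, beside 0.605% of the flanking windows. The octamer was found at 2.20% of their Sox2 summits, beside 1.31% of flanking windows, some of which reach the Oct4 summit of the same region. In all, 24 members held the octamer at the Oct4 summit together with the SOX motif at the Sox2 summit, 708 held the octamer without the SOX motif, and 199 held the SOX motif without the octamer. In 6648 members (85.6%), none of the octamer, the SOX motif, the composite and MORE was found in these windows under the limits set here.

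**Figure D3:**
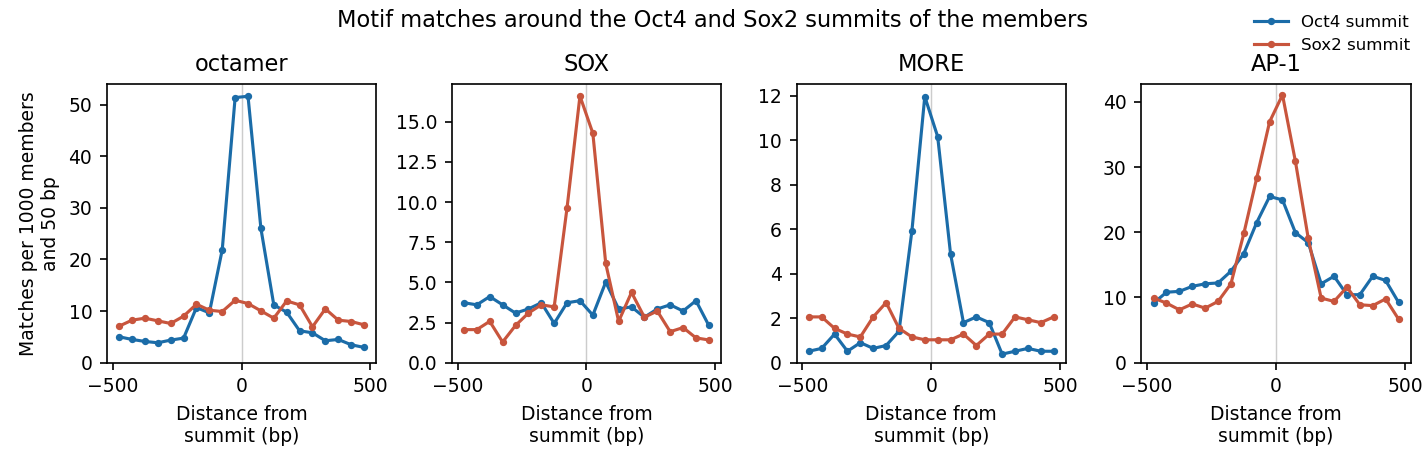
Matches of 4 motifs per 1000 members in each 50 bp, by distance from the Oct4 summit (blue) and from the Sox2 summit (red). The octamer and MORE peak at the Oct4 summit, SOX at the Sox2 summit and AP-1 at both, with at most 51.6 matches for the octamer and 16.6 for SOX. Around the Sox2 summit the octamer rises less, to 12.1 matches.

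Most octamers at Sox2 summits, 116 of 171, were in members whose summits lay close together. Where the summits were within 100 bp, the octamer was found at 7.26% of Oct4 summits (interval 6.195 to 8.435%) and at 5.40% of Sox2 summits (interval 4.48 to 6.44%), windows that then overlap in part. Where they were farther apart, it was found at 10.3% of Oct4 summits (interval 9.47 to 11.1%) and at 0.979% of Sox2 summits (interval 0.738 to 1.27%). MORE followed the same course, with 1.07% at Oct4 summits of the closer members and 2.08% at those of the farther ones. The SOX motif at the Sox2 summit was found in 2.05% of the closer members (interval 1.49 to 2.74%) and 3.19% of the farther ones (interval 2.74 to 3.68%). Neither the octamer at the Oct4 summit nor the SOX motif at the Sox2 summit was thus more frequent where the summits met.

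The composite element was rare in members but more frequent than in regions of either factor without the other. With up to 2 mismatches it lay within 50 bp of the Oct4 or the Sox2 summit in 125 members (1.61%, interval 1.34 to 1.91%). At the Oct4 summit it was found in 94 members (1.21%, interval 0.979 to 1.48%), beside 0.142% of flanking windows and 0.344% of the highest summits of all regions. It was found at 0.748% of Oct4 summits in the 56787 placed Oct4-only regions, which had an Oct4 peak and none of Sox2, Nanog or Nr5a2, so that the share in members was 1.62 times as high (95% interval of the ratio 1.30 to 2.02). At the Sox2 summit it was found in 56 members (0.721%), against 0.403% of the 64594 placed Sox2-only regions, defined likewise, a ratio of 1.79 (interval 1.34 to 2.39). In regions with both factors and also Nanog or Nr5a2, the composite was found at 0.479% of Oct4 summits.

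The share of the composite was higher in members than in Oct4-only regions in each band of peak score and at each number of mismatches, by amounts that differed. In members whose Oct4 peak scored 50 to 100, 100 to 200 and 200 or more, the ratio was 1.38 (interval 0.8825 to 2.15), 1.615 (interval 1.07 to 2.45) and 1.56 (interval 1.125 to 2.17), and the interval of the lowest band includes an equal share. With up to 1 mismatch, 13 members had the element at the Oct4 summit (0.167%, against 0.0669% of Oct4-only regions), and with up to 3 mismatches 468 members had it (6.03%, against 5.40%). A perfect match was found at the Oct4 summit of 2 members. Among regions that held an intact octamer at the Oct4 summit, a composite match was present in 7.24% of members (interval 5.47 to 9.36%) and in 4.63% of Oct4-only regions (interval 4.11 to 5.19%).

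Composites were most frequent where the summits met. Within members, the element was found at 1.67% of Oct4 summits when the Sox2 summit was within 100 bp (interval 1.175 to 2.31%) and at 1.03% when it was farther (interval 0.785 to 1.33%), which overlap. At Sox2 summits the values were 1.63% (interval 1.14 to 2.26%) and 0.374% (interval 0.2315 to 0.571%), which do not. Where the summits were within 100 bp, their windows overlap in part, so that 1 composite can be counted at both. The part of that in these differences was not tested. Of the 94 composites at Oct4 summits, 49 had an intact octamer, and of the 56 at Sox2 summits, 16 did.

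Counts at the spacing known from embryonic stem cells were small. The cores CNTTGT and ATGCNNAT were searched within the same windows in 4 orders and orientations with 0 to 20 bp between them, 84 arrangements in all. The SOX core 1 bp before the POU core on the same strand was found at the Oct4 summit of 7 members, and the other 83 arrangements had a median of 3 and a highest count of 7 members. At the Sox2 summit it was found in 7 members, with a median of 2 and a highest count of 5 for the others. In Oct4-only regions it was found at 10 of 56787 Oct4 summits (0.0176%, interval 0.008445 to 0.0324%), where the others had a median of 17, against 0.0901% (interval 0.0362 to 0.186%) of members.

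**Figure D4:**
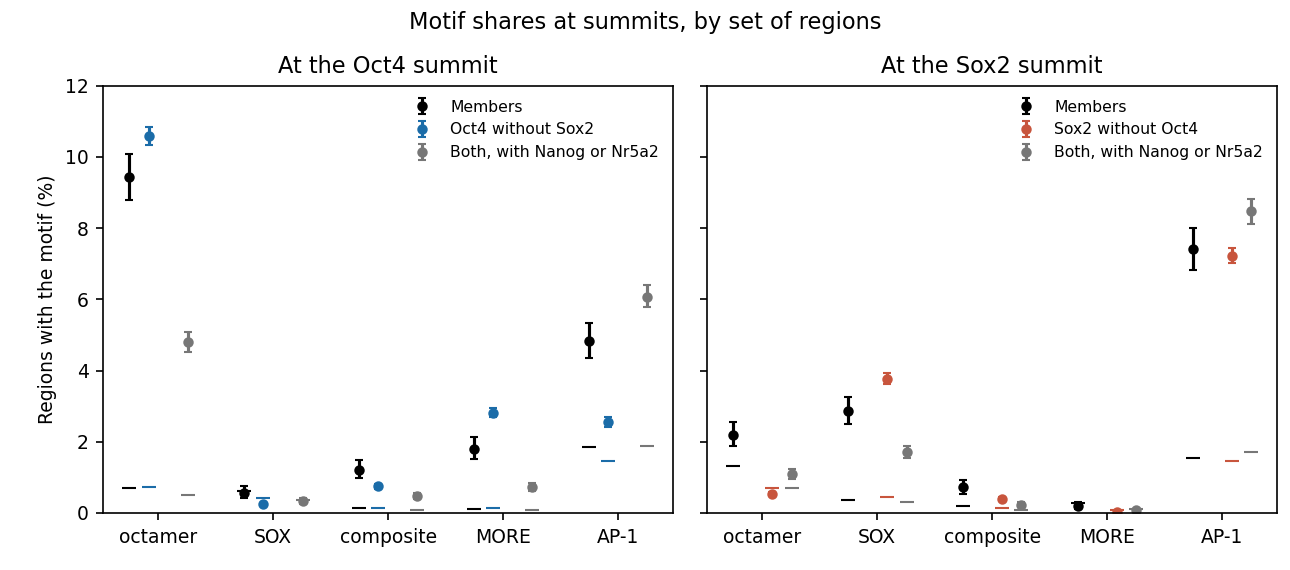
Share of regions with each motif within 50 bp of the Oct4 summit (left) and the Sox2 summit (right), with exact 95% intervals, for members and for the comparison sets. Short horizontal marks give the share in windows 500 bp away. Members have 9.42% octamers at the Oct4 summit, against 10.6% in Oct4-only regions and 4.80% in regions with Nanog or Nr5a2.

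With the forms pooled, the motifs of single factors were less frequent in members than in the regions of that factor without the other. The octamer was found at 10.6% of Oct4 summits in Oct4-only regions, a ratio of 0.892 for members (interval 0.829 to 0.959), which was 0.734, 0.909 and 0.873 in the 3 bands of score, with an interval that included 1 in the middle band (0.7955 to 1.04). By form, Oct4BiD summits held it in 10.6% of members and 12.2% of Oct4-only regions, whereas native Oct4 summits held it in 4.895% and 4.86%, within their intervals. MORE was found at 1.80% of the members' Oct4 summits (140 regions) and at 2.82% of those of Oct4-only regions, a ratio of 0.640 (interval 0.539 to 0.759), and in all 3 bands of Oct4 score the ratio for MORE lay between 0.531 and 0.6865. MORE was lower in members for both forms, at 1.83% and 2.85% of Oct4BiD summits and 2.17% and 3.425% of native Oct4 summits. The SOX motif was found at 3.77% of Sox2 summits in Sox2-only regions, a ratio of 0.761 for members (interval 0.6645 to 0.871), and 0.584, 0.923 and 0.751 in the 3 bands of Sox2 score, again with 1 inside the interval of the middle band (0.7354 to 1.158). By form it was 3.04% of members and 4.07% of Sox2-only regions at Sox2BiD summits, and 1.51% and 2.195% at native Sox2 summits. Against the regions that also held Nanog or Nr5a2, members had higher shares of all 3, by 1.96 times for the octamer, 2.50 times for MORE and 1.69 times for the SOX motif.

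AP-1 motifs were as frequent at the Sox2 summits of members as in Sox2-only regions, and more frequent at their Oct4 summits than in Oct4-only regions. AP-1, the family of Fos and Jun, reads TGAGTCA and is a known mark of open enhancers in fibroblasts. The motif lay within 50 bp of the Sox2 summit in 575 members (7.40%, interval 6.83 to 8.01%), beside 7.23% in Sox2-only regions, a ratio of 1.02 (interval 0.942 to 1.11). At the Oct4 summit it was found in 375 members (4.83%, interval 4.36 to 5.33%), beside 2.56% in Oct4-only regions, a ratio of 1.89 (interval 1.69 to 2.11). Regions with both factors and also Nanog or Nr5a2 had higher shares than members at both summits. They held AP-1 at 6.08% of Oct4 summits, a ratio of 0.7945 for members (interval 0.711 to 0.887). At their Sox2 summits the share was 8.465%, a ratio of 0.874 (interval 0.800 to 0.956). Within members the motif was most frequent where the summits met, at 9.07% of Oct4 summits within 100 bp of the Sox2 summit and 3.20% of those farther away. In the closer members the windows of the 2 summits overlap in part, so that AP-1 near the Sox2 summit can be counted at both. The part of that overlap in this difference was not tested. The flanking windows of members held it in 1.84% of cases around Oct4 summits and 1.53% around Sox2 summits.

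Of the other motifs in the search, some were above their flanks and some were not. The TEAD motif ACATTCC was found at 2.81% of Oct4 and 2.78% of Sox2 summits of members, beside 1.435% and 1.60% of flanking windows, and the RUNX motif AACCACA at 3.41% and 3.76%, beside 2.30% and 2.30%. The NANOG motif GCCATTA was at the level of the flanks at both summits (0.940% and 0.953%, beside 0.882% and 0.830%). The NR5A motif TCAAGGTCA was found at 7 Oct4 summits of members (0.0901%, interval 0.0362 to 0.186%), below the 0.193% of flanking windows. At Sox2 summits it was found in 9 members (0.116%, interval 0.0530 to 0.220%), with an interval that includes the 0.142% of the flanks. Over all regions of the series it was found at 1.01% of highest summits, which include those of Nr5a2 itself. The KLF motif GGGTGTGG was at the level of its flanks. The CTCF motif was rare, at 22 Oct4 summits (0.283%) and 23 Sox2 summits (0.296%) of members, but above the 0.0708% of flanking windows at both. Its share was 2.04 times that of Oct4-only regions (interval 1.27 to 3.26) and 2.855 times that of Sox2-only regions (interval 1.78 to 4.58). Against regions with both factors and also Nanog or Nr5a2, its share in members was lower. The ratio was 0.457 at Oct4 summits (interval 0.292 to 0.714) and 0.481 at Sox2 summits (interval 0.310 to 0.745). By library, it was at 22 of 6791 Oct4BiD and 3 of 3820 native Oct4 summits, and at 23 of 7303 Sox2BiD and 6 of 3508 native Sox2 summits.

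The share with the octamer differed with the form of Oct4 that marked the member. In the 3948 placed members with Oct4BiD but no native Oct4 peak it was found at 12.2% of Oct4 summits (interval 11.2 to 13.3%), in the 2843 with both forms at 7.98% (interval 7.01 to 9.04%), and in the 977 with native Oct4 alone at 2.25% (interval 1.42 to 3.39%). The order held for each of the Sox2 combinations, with 11.2 to 12.7% for Oct4BiD alone, 6.35 to 9.32% for both forms and 1.02 to 3.06% for native Oct4 alone. Within bands of score, members with Oct4BiD alone had the most octamers in every band, with 8.505%, 13.2% and 18.5% at scores of 50 to 100, 100 to 200 and 200 or more. The score was that of the highest-scoring Oct4 peak, which came from different libraries in these groups. Equal scores therefore need not mean equal signal. Native Oct4 alone had 1.97%, 3.41% and 0 of 54 (which allows up to 6.60%), and both forms had 1.79%, 4.18% and 10.65%, so that these last 2 groups did not differ beyond their intervals in the lower bands. Native Oct4 members were not without POU sites, as MORE was found at 2.25% of their Oct4 summits (interval 1.42 to 3.39%). It was found at 2.50% with both forms (interval 1.955 to 3.14%) and at 1.19% with Oct4BiD alone (interval 0.876 to 1.58%). The intervals of native Oct4 alone and of Oct4BiD alone overlap. AP-1 took the opposite order to the octamer, at 7.37% with native Oct4 alone, 5.28% with both forms and 3.88% with Oct4BiD alone.

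Part of this difference was present at the same regions. In the 2843 members with both Oct4 forms, the octamer was within 50 bp of both summits in 121, of the Oct4BiD summit alone in 117 and of the native summit alone in 44. MORE was at both summits in 49 of these regions, at the Oct4BiD summit alone in 28 and at the native summit alone in 12, whereas AP-1 was at both in 83, at the Oct4BiD summit alone in 70 and at the native summit alone in 73. For the SOX motif in the 3043 members with both Sox2 forms, the counts were 36 at both summits, 39 at the Sox2BiD summit alone and 15 at the native summit alone, and for AP-1 they were 138, 100 and 69. Within these shared members, the summits of the fused forms thus lay on the factor's motif more often than those of the native forms, and those of Sox2BiD on AP-1 as well. The forms are 1 library each and differ in list length, and the part of that in these counts was not tested.

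For Sox2 the forms differed in the same direction over all members. The SOX motif was found at 3.04% of Sox2BiD summits in members (interval 2.66 to 3.46%) and at 1.51% of native Sox2 summits (interval 1.13 to 1.97%). The 465 placed members with native Sox2 alone had it in 2 cases (0.430%), and AP-1 in 13 (2.80%), against 7.65% AP-1 with Sox2BiD alone and 7.76% with both forms. The composite was found at 1.30% of Oct4BiD, 0.838% of native Oct4, 0.739% of Sox2BiD and 0.627% of native Sox2 summits, with intervals that overlap between the forms of each factor.

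Members lay mostly away from promoters, in introns and between genes. A promoter, taken as within 2 kb of an annotated start site, held the highest Oct4 or Sox2 summit of 821 members (10.6%, interval 9.89 to 11.3%), an exon outside promoters held 3.05%, an intron 47.0% and intergenic sequence 39.4%. The median distance to a start site was 14.4 kb. Oct4-only regions (10.3% promoter) and Sox2-only regions (10.1%) were alike in this respect, whereas 40.2% of the regions with both factors and Nanog or Nr5a2 lay at promoters (interval 39.6 to 40.8%), at a median distance of 5.10 kb. The rule removes regions in which another factor has a peak, and over the whole series 14.75% of regions lay at promoters.

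Base composition differed between the same sets. The bases up to 50 bp from the Oct4 summit were 39.9% GC on average and held 0.843 CpG dinucleotides, near the 39.4% and 0.815 of Oct4-only regions, but far from the 49.9% and 3.40 of regions with Nanog or Nr5a2. Around the Sox2 summit the members' values were 41.3% and 0.817. Repeats, which the reference marks in lower case, covered most of the window at 13.5% of the members' Oct4 summits (interval 12.7 to 14.2%), at 8.06% of their Sox2 summits (interval 7.46 to 8.69%) and at 20.6% of the Oct4 summits of Oct4-only regions. Whether base composition or repeats have a part in the motif shares was not tested.

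Among the combinations, promoters were most frequent where the 2 fused factors met without native peaks, at 13.8% of 2397 members (interval 12.45 to 15.3%). They were least frequent with Oct4BiD and native Sox2 alone, at 4.49% of 178 (interval 1.96 to 8.66%), and they made up 8.47% of the 1216 placed members with all 4 libraries. Members with summits within 100 bp had promoters in 11.5% of cases and the others in 10.2%, with overlapping intervals.

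The 10 members that ranked best in all 4 libraries, by the worst of their 4 ranks, are given with their score in each library. Equal scores in different libraries need not mean equal signal. The first was intergenic at chr11:14181669-14184042 (mm10), 417 kb from the nearest protein-coding start site (Pom121l12), with scores of 597 in native Oct4, 591 in Oct4BiD, 610 in native Sox2 and, for Sox2BiD, 1096. The second lay at chr10:66198281-66201380, in an intron, with 301, 759, 630 and 759 in the same order, and the third at chr3:24826306-24827724, in an intron 43.4 kb from the nearest start site, that of Naaladl2, with 287, 486, 409 and 672. None of these 3 held the octamer, the SOX motif, MORE or the composite in the windows searched.

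The remaining 7 of the 10 included the MORE-bearing member shown above, on chromosome 12 near Fam84a with 564, 637, 424 and 565, which also held an AP-1 motif. They also included the composite-bearing member 1, near Med30, with 404, 1025, 394 and 551. The member at chr14:17457391-17458665, 202 kb from the start site of Thrb, which encodes a thyroid hormone receptor, had 553, 821, 584 and 549, with summits 83 bp apart. The member at chr10:45982350-45984061, nearest to Hace1, had 310, 633, 532 and 578, and that at chr5:110947436-110950584, in an intron 68.2 kb from a start site of Ttc28, had 244, 477, 767 and 762 with summits 1950 bp apart. The last of the 10, at chr19:21814168-21815958 in an intron near Cemip2, had 239, 416, 467 and 607 and an AP-1 motif, and 1 further member lay on chromosome 18 and held an octamer. 

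In the other 8 combinations, the best-ranked members were mostly intergenic. That with Oct4BiD and Sox2BiD alone lay at chr14:100598806-100601324, nearest to Klf12 at 316 kb, with scores of 481 and 598. Native Oct4 with both Sox2 forms was best at chr8:42388182-42389564, with 394 in native Oct4, 718 in native Sox2 and 762 in Sox2BiD, and Oct4BiD with both Sox2 forms at chr12:31881433-31883395, in an intron near Cog5, with 637, 477 and 872. Native Oct4 and native Sox2 alone were best on chromosome X at chrX:23161137-23162550, with 407 and 227. Of the remaining 4, those with both Oct4 forms and Sox2BiD (near Slc1a1), native Oct4 and Sox2BiD (near Slc35b3) and both Oct4 forms and native Sox2 (near Adgra3) were intergenic, and the one with Oct4BiD and native Sox2 lay at an annotated promoter, 24.0 kb from the nearest protein-coding start site (Eya1), and held an octamer. That member was also the only one of the 8 with any of the octamer, the SOX motif, MORE or the composite.

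Genes near members were read against all genes. Of the 21924 protein-coding genes in GENCODE M21, 6383 (29.1%) had at least 1 member within 50 kb of a start site, 4790 had exactly 1 and 37 had 5 or more. Of the 7768 placed members, 4600 lay within 50 kb of a protein-coding start site. The shares of the gene lists below are counts of few genes, with intervals to match. A member counted for a gene by this distance can lie nearer to a start site of another gene. Among the genes named below, this held for at least 1 member of Vim, Dab2, Nodal, Utf1, Sox10, Pou1f1, Fabp7 and Neurod1. It also held for both members of Sox15.

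Among the gene lists, the fibroblast genes had the highest share with a member. Of 15 genes of the fibroblast program, 10 had a member (66.7%, interval 38.4 to 88.2%), beside 29.1% of all protein-coding genes. The list was chosen with earlier results of these data known. Whether gene length or the spread of start sites has a part in this share was not tested. Dab2 (chr15:6299788-6440712), which encodes an endocytic adaptor, had 4 members, of which 1 held peaks of both Oct4 forms, with scores of 322 in native Oct4, 353 in Oct4BiD and 114 in Sox2BiD. Vim (chr2:13573927-13582826), the intermediate filament gene of mesenchymal cells, had 3, as did Zeb1 and Zeb2, which encode factors of the epithelial-mesenchymal transition. The 3 members of Vim had Oct4 scores from 58.5 to 134.8 and Sox2BiD scores from 72.9 to 132.3, and 1 of them held an AP-1 motif. That at chr2:13605101-13605880 was nearest to Vim, at 26.25 kb, and the others were nearer to a start site of Trdmt1. The other 6 genes had 1 or 2 each. The same 15 genes had an Oct4-only region in 13 cases and a Sox2-only region in 13, beside 17746 and 18357 of the 21924 genes.

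Of 20 genes of the pluripotency network, 3 had a member (15%, interval 3.21 to 37.9%, which includes the 29.1% of all protein-coding genes). An Oct4-only region lay within the same distance of 16 of the 20 and a Sox2-only region of 17. Sall4 (chr2:168748332-168767943), a zinc-finger gene of early embryos, had 2. Its intronic member had scores of 138 in native Oct4, 105 in Oct4BiD and 346 in Sox2BiD with summits 53 bp apart, and its intergenic member had 88.95 in Oct4BiD and 440 in Sox2BiD. Nodal, which encodes a TGF-beta ligand, and Tbx3, a T-box gene, had 1 each, with 128, 334 and 530 in native Oct4, Oct4BiD and Sox2BiD for the former and 160.5, 382 and 242 for the latter. None of these 4 members held the octamer, the SOX motif, MORE or the composite.

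Among the 8 genes known for OCT4-SOX2 elements, 3 had a member (37.5%, interval 8.52 to 75.5%). Lefty1 had 2 members, Sox2 and Utf1 had 1 each, and Fgf4, Fbxo15, Nanog, Pou5f1 and Spp1 had 0, although all 8 had an Oct4-only region within 50 kb. Utf1 (chr7:139943789-139945112), a chromatin-bound factor of stem cells, had a member with scores of 53.3 in Oct4BiD and 145 in Sox2BiD. Lefty1 (chr1:180935022-180938400), which encodes a Nodal antagonist, had one with 112, 70.4 and 90.1 in native Oct4, Oct4BiD and Sox2BiD, and one nearer to Lefty2 with 51.1 in Oct4BiD and 214 in Sox2BiD. The member at Sox2 itself (chr3:34650405-34652461) had scores of 1208 in native Sox2, the highest of that library in any member, 703 in Sox2BiD and 164 in Oct4BiD. Its native Sox2 and Sox2BiD summits lay 641 and 764 bp inside the gene, and its Oct4BiD summit lay at -502 bp from the start. The delivered vector carries Sox2 coding sequence as well, and tags from the vector and from the gene cannot be told apart. None of these 4 members held any of the 4 elements.

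The families of the 2 factors themselves were on either side of the share of all genes, with wide intervals that include it. Of 19 SOX genes, 8 had a member (42.1%, interval 20.3 to 66.5%), with 2 for Sox15 (chr11:69655314-69656727) and 1 each for Sox2, Sox4, Sox5, Sox7, Sox10, Sox11 and Sox21. A member near Sox15 had peaks of all 4 libraries, with 90.1 in native Oct4, 437.5 in Oct4BiD, 191 in native Sox2 and, for Sox2BiD, 467.5. The member of Sox11 had 196.5 in Oct4BiD, 107 in native Sox2 and, for Sox2BiD, 107, and that of Sox10 had 64.5 in Oct4BiD and 65.7 in Sox2BiD. Of 15 POU genes, 4 had a member (26.7%, interval 7.79 to 55.1%). Pou2f1 (chr1:165865154-166002678), which encodes the widely expressed Oct1, had 3, Pou1f1, a pituitary factor, had 2, and Pou4f1 and Pou4f3, factors of sensory neurons, had 1 each.

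Of the neural progenitor genes, 4 of 15 had a member (26.7%, interval 7.79 to 55.1%). Fabp7 (chr10:57784881-57788450), a fatty acid binding protein of radial glia, had 4 members, as many as Dab2. Its promoter member had peaks of all 4 libraries, with 145 in native Oct4, 320 in Oct4BiD, 213 in native Sox2 and, for Sox2BiD, 147, and held an octamer, and the other 3 had Oct4BiD scores from 51.3 to 52.8. Nes, an intermediate filament gene of neural progenitors, Neurod1 and Pax6 had 1 each. The member near Neurod1 had 584 in native Oct4 and 507 in Oct4BiD but 50.2 in Sox2BiD, close to the lowest score in the list.

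**Figure D5:**
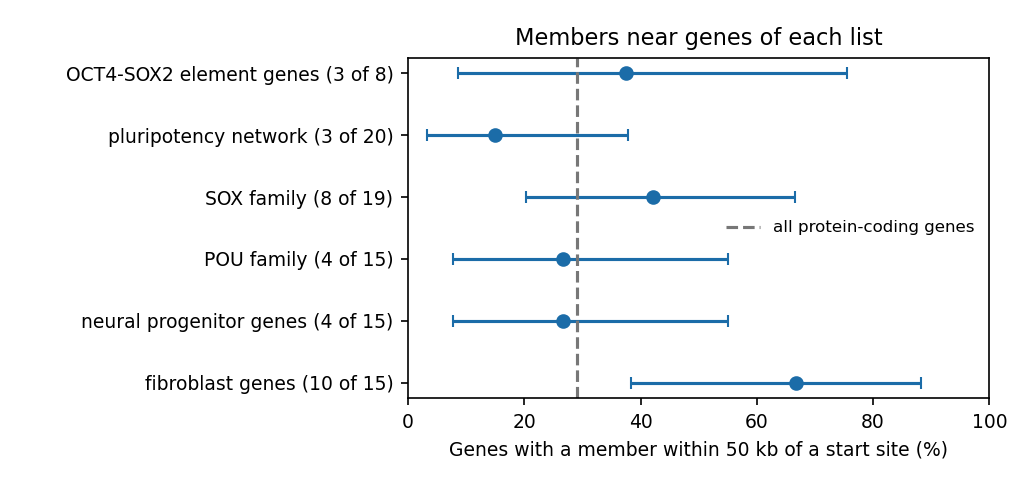
Share of the genes of each list with at least 1 member within 50 kb of an annotated start site, with exact 95% intervals, and the share of all protein-coding genes as a dashed line (29.1%). Fibroblast genes stand at 10 of 15 and genes of the pluripotency network at 3 of 20.

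The protein-coding genes with the most members were long genes with start sites far apart. Cacna2d3 and Cacnb2, which encode calcium channel subunits, Sil1, a nucleotide exchange factor, and Zbtb20, a zinc-finger repressor, had 7 members each. Arhgef28, Focad, Frmd4a, Mllt3, Pde4d and Prickle2 had 6 each, as did Rapgef4 and Srgap2. The annotated start sites of these 12 genes spanned from 199 kb in Sil1 to 1485 kb in Pde4d, so that a wider stretch was counted for them than for a gene with 1 start site. The same genes had 9 to 25 Oct4-only and 7 to 42 Sox2-only regions.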

How the data were processed

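Flag CUT&Tag of 8 libraries was read from peak and summit lists. Trimming by the authors used Trim Galore 0.6.4 and alignment to mm10 used Bowtie2 2.4.5. Reads that the methods call repetitive, reads of mapping quality under 30 and mitochondrial reads were dropped with SAMtools 1.16.1. Peak calling used MACS 1.4.2 with 1 tag kept at each position and a tag shift of 25 bp. The methods speak of merging replicates, whereas the reporting form gives a single experiment, and 1 list per group was analysed here. The deposited score of a peak is 10 times -log10 of its p-value, with a lowest value of 50 (p of 1e-05). The deposited summit signal is a tag count that the authors did not scale to depth, and heights were not compared between libraries. The lists hold no read totals. The study's reporting form gives them, with more read pairs for native Oct4 than Oct4BiD and for native Sox2 than Sox2BiD, and they were not used here.

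Of 661009 peaks, 110 lay off the 21 placed chromosomes and 0 ran past a chromosome end of GRCm38.p6, whose sequence is that of mm10. Sequence came from RefSeq and genes from GENCODE M21. Motifs were searched on both strands within 50 bp of the summit of the highest-scoring peak, and a place was assigned from the highest Oct4 or Sox2 summit. Ratios carry log-scale 95% intervals. Scripts (Python 3.11.15, NumPy 2.4.6, pandas 2.3.3, SciPy 1.17.1, matplotlib 3.10.9) were tested on simulated data. The members and gene lists were chosen with earlier results of these data known. The text names every gene of the OCT4-SOX2 element list, the 3 genes with the most members of each other list with ties, the 10 protein-coding genes with the most members with ties, the 10 best-ranked members with all 4 libraries and the best of each other combination. Best-ranked means the lowest rank by score in the library where the member ranked worst.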

Additional observations from a re-analysis of the deposited data

Results flagged for a closer look

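The share of summits with an AP-1 motif moved in opposite directions between the forms of the 2 factors. In members it was 5.97% of native Oct4 summits and 4.51% of Oct4BiD summits, a difference of -1.46 percentage points for Oct4BiD minus native. It was 6.27% of native Sox2 summits and 7.72% of Sox2BiD summits, a difference of 1.45 points for Sox2BiD minus native. With 1 library per form, the difference between the factors was not tested.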

How the results depend on the processing

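No paired analysis was possible because each group has 1 library and no result comes from a test, and no library could be left out of a group. Of 59 values under other settings, 18 stayed within the limit, which was a factor of 1.5 for counts and the 95% interval for the others, and 41 did not. The cause was not tested. With a score of at least 100 in all 8 libraries there were 4921 members, 675 with all 4 libraries, 10.1% octamers, 11.4% promoters and a median summit distance of 275 bp. With that limit for Oct4 and Sox2 alone the values were 3559, 439, 10.6%, 9.56% and 284 bp, and when each library was cut to its 50000 best peaks 3974, 775, 8.18%, 9.67% and 264 bp. With summits within 100 bp there were 2606 members, 514 with all 4 libraries, 7.22% octamers, 1.96% SOX motifs, 2.07% composites and a distance of 50 bp. The 4 native libraries alone gave 2182 members, 4.13% octamers, 1.515% SOX motifs, 1.06% composites, 9.045% promoters and 170.5 bp, and the 4 BiD libraries alone gave 12.05% promoters. Neither can give a count of members with all 4 libraries. Without a Nanog or Nr5a2 peak within 1 kb, promoters were 9.505%, and the counts fell within the limit to 6188 members and 1000 with all 4 libraries. Windows of 25 bp gave 4.58% octamers, 1.17% SOX motifs and 0.747% composites, and windows of 100 bp gave 13.7%, 4.47% and 2.43%. Composites at either summit were 0.219% with up to 1 mismatch and 8.15% with up to 3. Promoters were 2.97% at 500 bp and 24.4% at 5 kb. Genes with a member were 15.8% at 20 kb and 45.5% at 100 kb. A missing peak does not show that a factor was absent.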
